A study of Mus musculus with 18 samples.

Results

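The genes of the moving machinery of the sperm tail were examined in round spermatids (RS), the haploid germ cells that have finished meiosis and not yet elongated. Members were taken by gene symbol, as every gene of the count table whose symbol begins with Dnah, Dnai, Dnaic, Dnal, Dnaaf, Rsph, Drc, Cfap or Tekt followed by its number or letter. This gave 72 genes of the 54232 in the table: 15 axonemal dynein heavy chains, 5 intermediate and light chains, 4 dynein arm assembly factors, 8 radial spoke genes, 3 genes of the nexin-dynein regulatory complex, 5 tektins, 31 genes named for cilia- and flagella-associated proteins (CFAPs) and 1 antisense RNA, Dnah2os. All 72 passed edgeR's filter on low counts, which kept 21058 genes.

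RS came from the testes of WT mice, of GRTH-KO mice, which lack the RNA helicase GRTH made from Ddx25, and of GRTH-KI mice, in which a human GRTH gene with a missense mutation leaves the protein without its phosphorylated form. Mice were 75 to 85 days old, and 6 libraries of total RNA were made for each genotype without polyA selection. RS were separated by sedimentation through an albumin gradient after a collagenase step that removes Leydig cells. The labels do not say whether the libraries of a genotype came from separate animals, so p-values measure the spread between libraries, which may be technical, and in such bulk samples fewer cells of a type and less RNA per cell cannot be told apart.

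The axoneme is a ring of microtubule doublets around a central pair, and it runs the length of a motile cilium or sperm tail. Dynein arms in an outer and an inner row walk on the neighbouring doublet, radial spokes connect the doublets with the central apparatus, and the nexin-dynein regulatory complex links the doublets and limits their sliding. Dynein arms are put together in the cytoplasm by assembly factors before transport, tektins and microtubule inner proteins line the lumen of the doublets, and CFAPs are found throughout the structure. Several subunits exist as paralogs, of which Dnah8, Dnah17 and Rsph6a are known as the sperm forms and Dnah5, Dnah9, Dnah11 and Rsph4a as forms of airway and other motile cilia. The tail axoneme begins to grow in RS, and its genes are transcribed from late meiosis on.

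Many ciliary genes carry an X-box close to their start, the DNA motif bound by RFX transcription factors. RefSeq promoters of the GRCm38.p6 build, from 250 bases before to 50 bases after an annotated start, were matched for 59 of the 72 genes. An X-box on either strand lay in the promoters of 10 of these 59 genes (16.9%), against 474 of the 27025 genes with a promoter in that set (1.75%). In 9 of the 10 the X-box lay before the start, and in Rsph3b it lay after it. The 80 bases before the start of those 9 genes are given from 5′ to 3′ on the strand of the gene, with the X-box in capitals, because of the motifs searched for the X-box was found in the largest share of these promoters.
Dnaic1, chr4:41569714-41569793, plus strand: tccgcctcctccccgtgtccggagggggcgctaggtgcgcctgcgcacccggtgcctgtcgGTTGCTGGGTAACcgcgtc
Dnaic2, chr11:114727339-114727418, plus strand: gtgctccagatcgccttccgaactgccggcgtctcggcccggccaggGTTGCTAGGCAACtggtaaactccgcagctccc
Dnaaf2, chr12:69198430-69198509, minus strand: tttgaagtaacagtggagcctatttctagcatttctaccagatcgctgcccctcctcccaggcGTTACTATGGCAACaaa
Tekt2, chr4:126325647-126325726, minus strand: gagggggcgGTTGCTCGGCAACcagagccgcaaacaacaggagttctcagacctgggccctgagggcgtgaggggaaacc
Cfap44, chr16:44394719-44394798, plus strand: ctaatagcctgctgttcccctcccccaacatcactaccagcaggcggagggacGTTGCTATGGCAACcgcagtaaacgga
Cfap45, chr1:172521050-172521129, plus strand: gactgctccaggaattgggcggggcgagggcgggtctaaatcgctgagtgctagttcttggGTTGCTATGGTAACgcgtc
Cfap58, chr19:47937632-47937711, plus strand: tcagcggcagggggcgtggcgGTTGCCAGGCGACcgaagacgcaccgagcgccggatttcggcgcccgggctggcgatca
Cfap99, chr5:34288585-34288664, plus strand: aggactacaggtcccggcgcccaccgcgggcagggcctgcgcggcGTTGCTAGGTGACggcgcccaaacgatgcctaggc
Cfap298, chr16:90934850-90934929, minus strand: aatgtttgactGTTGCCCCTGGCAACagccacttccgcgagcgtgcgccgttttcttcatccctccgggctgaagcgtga

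The X-box ended between 4 bases (Dnaaf2) and 59 bases (Tekt2) before the start. In Dnaic1, Dnaaf2 and Cfap45 it lay within the last 19 bases, and in Tekt2, Cfap298 and Cfap58 its first base lay 71, 69 and 59 bases before the start. Cfap298 held another X-box farther upstream, and in Tekt2 the same X-box served a pair of annotated starts. The full cAMP response element TGACGTCA, bound by CREM, lay in 1 of the 59 promoters (Dnah6), a share of 1.69% against 2.03% of all genes. The E-box CACGTG lay in 5 (Cfap126, Cfap57, Cfap20, Drc3 and Dnaic2), a share of 8.47% against 8.09%. A match of letters does not show that a factor binds there.

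Library totals of gene counts ranged from 18766971 to 26776555, so that 3 counts, taken as the floor, correspond to 0.112 to 0.160 CPM (counts scaled to a common library size). Ddx25 was at 567 ± 24.7 normalized CPM in WT (SD, n = 6) and between 47.7 and 90.9 in KO. It stood at 0.0456 to 0.519 CPM in 5 KI libraries but at 56.9 in that labelled KI 4, within the KO range, so the targeted gene goes against that label. The counts of that library were also closer to those of KO 2 than those of any other pair of libraries, with a pair index of 1.59, where 1 is counting noise alone. A further 6 pairs within a genotype had an index from 2.07 to 3.02 (WT 1 and 2, WT 3 and 4, WT 5 and 6, KO 4 and 5, KI 1 and 2, KI 3 and 5), while every other pair was at 4.64 or above. For members called in KI with all libraries, or once KI 4 is left out, values are therefore given with and without KI 4, and counts are also given with the close pairs summed. Summing, with KI 4 left out, leaves 3 WT, 5 KO and 3 KI replicates, so that fit detects a change less readily. Calls are those of edgeR with TMM scaling over all libraries unless another fit is named. Levels are CPM scaled with TMM factors, and a level per kb is divided by the merged exon length of the gene, which covers all its isoforms.

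Markers set the sample beside its label. The 9 RS markers summed to between 1070 and 1612 CPM in WT, 726 and 1549 in KO and 788 and 1120 in KI. Of these 9, 2 were lower in KO (Tssk2 and Catsper3) and 5 in KI (the same, Tssk1, Sun5 and Spaca3), beside 13.5% and 15.4% of all genes. Their median log2 fold change was -0.15 and -0.48. Tssk2, a kinase of postmeiotic germ cells, fell by 1.16 log2 units in KO (SE 0.22, adjusted p = 0.000531, edgeR) and by 1.44 in KI (SE 0.22, adjusted p = 5.04e-05, edgeR). Without KI 4, 4 of the 9 were lower in KI, beside 15.8% of all genes. The 8 markers of elongating spermatids (Prm1, Prm2, Tnp1, Tnp2, Odf1, Akap4, Smcp, Oaz3) summed to between 14805 and 20432 CPM in WT, 1748 and 4362 in KO and 2297 and 3568 in KI, and all 8 were lower past 1 log2 unit in both, beside 1.73% and 1.95% of all genes. The paper names each of these 8 among its changed genes in the same libraries, so their fall is not a separate observation. Each of the 6 Leydig cell markers was higher in both genotypes, from 9.76 to 19.7 CPM in sum in WT to 29.9 to 52.0 in KO and 13.4 to 66.1 in KI. Summed spermatocyte markers overlapped between all genotypes, at 2067 to 2352, 2103 to 2462 and 2119 to 2397 CPM. Single markers among these 9 were called: 2 higher (Sycp3 and Hormad1) and 1 lower (Meiob) in KO, and Sycp3 higher in KI. Sycp3 rose 0.74 and 0.75 log2 units (SE 0.15 in both, adjusted p = 0.000689 and 0.000559, edgeR). Sertoli cell markers summed to between 13.7 and 24.2 CPM in WT, 9.61 and 19.6 in KO and 10.5 and 20.8 in KI, macrophage markers to between 3.93 and 8.81, 6.27 and 12.97 and 8.23 and 13.9, and spermatogonial markers to between 30.0 and 41.0, 34.2 and 72.8 and 20.9 and 76.3. Of 7 Sertoli cell markers tested, 1 was lower in KO and 2 in KI. Of 5 macrophage markers, 2 were higher in KO and 3 in KI, or 2 in KI without KI 4. Of 7 spermatogonial markers, 2 were higher in KO (Stra8 and Kit) and 1 in KI (Stra8), which was not called without KI 4. Over all genes 16.4% were higher and 13.5% lower in KO, and 16.1% and 15.4% in KI. No list had a marker at the floor in every library. The part of these shifts in the results for the axonemal genes was not tested.

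The axonemal genes spanned a wide range of levels in WT RS. Rsph1, a protein of the spoke head, had the highest level per length at 543 ± 65.2 CPM per kb (SD, n = 6), followed by Cfap206, which docks a spoke and an inner arm dynein, at 393 ± 27.3. Cfap36, Tekt1, Dnaaf1 and Tekt2 came next at 319 ± 34.6, 318 ± 52.2, 314 ± 54.4 and 311 ± 67.4 CPM per kb, which differ from each other by less than their spread. At the other end lay Dnah11 at 0.137 ± 0.0305, Rsph4a at 0.194 ± 0.118, Dnah9 at 0.373 ± 0.0776 and Dnah5 at 0.547 ± 0.0856 CPM per kb. The next gene up, Cfap97d2, was at 1.30 ± 0.180. All 4 of the lowest genes are thus forms known from other motile cilia, and their counts per WT library ran from 6 for Rsph4a to 245 for Dnah5. Together the 72 genes took between 1.93% and 2.25% of the counts of a WT library, 2.02% to 2.55% in KO and 2.51% to 2.76% in the KI libraries other than KI 4, which was at 2.02%.

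**Figure D1:**
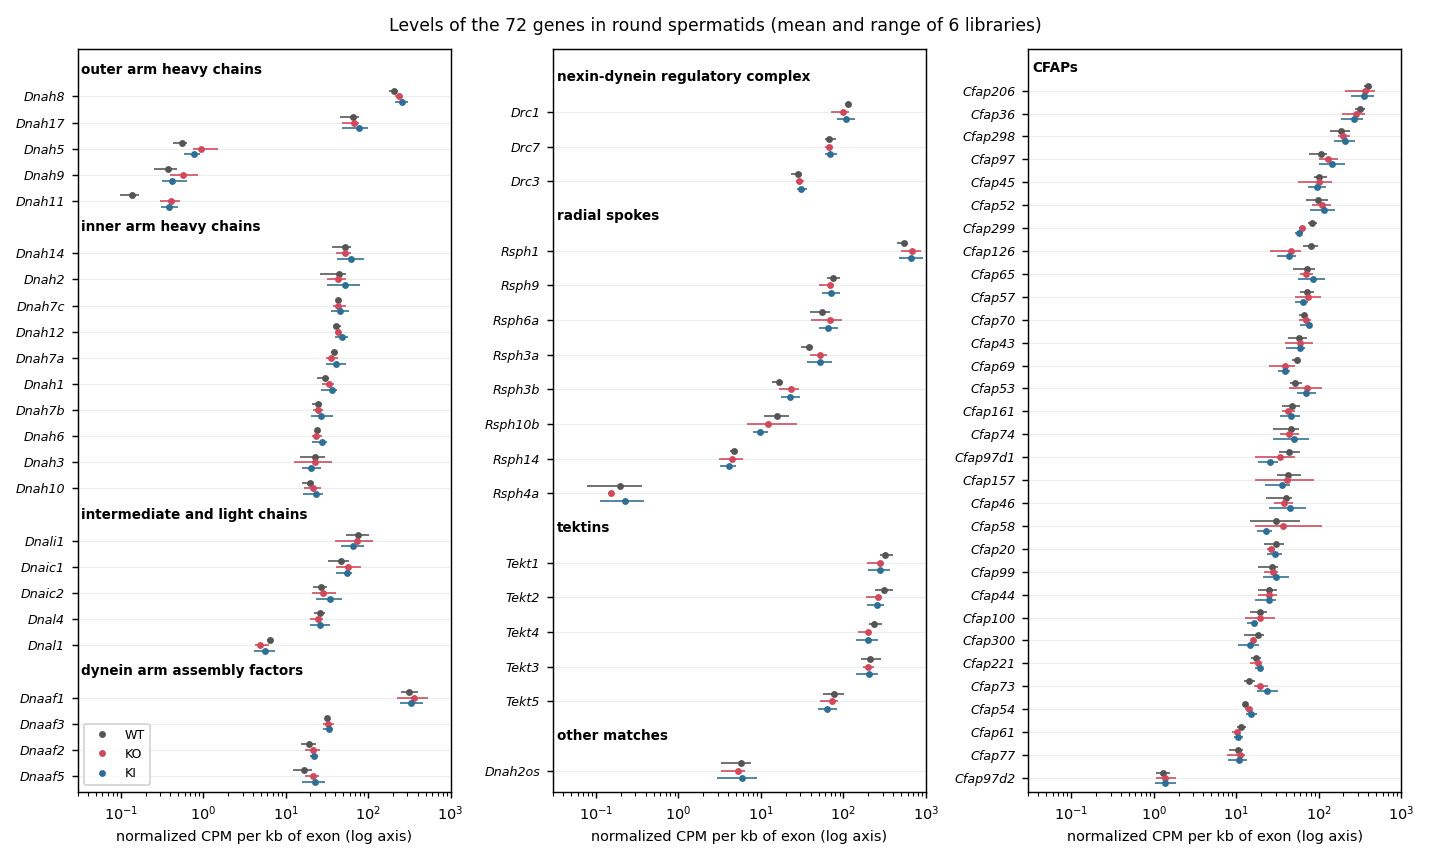
Level of each of the 72 genes in CPM per kb of exon on a log axis, with genes grouped by the part of the axoneme they belong to. Points are means and lines the range of the 6 libraries of WT (grey), KO (red) and KI (blue); for most genes the 3 ranges overlap, and Dnah11, Rsph4a, Dnah9 and Dnah5 lie lowest in WT.

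**Figure D2:**
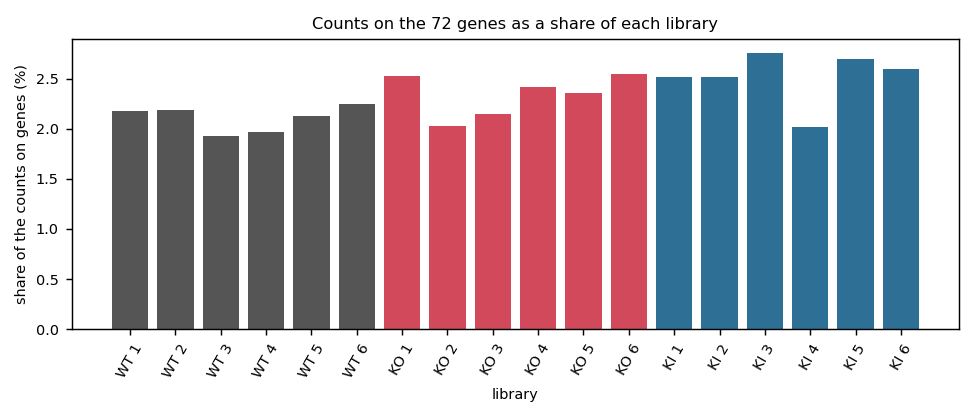
Counts on the 72 genes as a percent of all counts on genes in each of the 18 libraries, before TMM scaling. KI 4 is the lowest KI bar at 2.02%, next to KO 2 at 2.02%.

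Against WT, most axonemal genes were called in neither KO nor KI. In KO, 7 of the 72 genes were higher and 4 lower at an adjusted p under 0.1 (edgeR's quasi-likelihood test, Benjamini-Hochberg over all genes), which is 15.3% of them against 29.9% of all genes tested. Higher genes made up 9.72% of the 72 and 16.4% of all genes, and lower genes 5.56% and 13.5%. In KI, 9 were higher and 5 lower, 19.4% against 31.6% of all genes, with 12.5% against 16.1% higher and 6.94% against 15.4% lower. For higher genes in KI this order turned without KI 4, where 13 genes were higher (18.1% against 14.5% of all genes) and 4 lower (5.56% against 15.8%). It also turned without WT 6 (18.1% against 17.8%), without both KI 4 and KO 2 (19.4% against 14.4%), with DESeq2 (16.7% against 13.3%), with total counts (29.2% against 26.7%) and with no filter on low counts (8.33% against 7.34%). For higher genes in KO it turned with no filter (6.94% against 6.25%). The share of lower genes was below that of all genes in each fit run. The median log2 fold change of the 72 genes was 0.003 in KO and 0.08 in KI, beside 0.03 and 0.05 over all genes. Their median size of change, sign left aside, was 0.12 in KO and 0.21 in KI, beside 0.28 and 0.29 over all genes. The 95% interval lay within 1 log2 unit on both sides of 0 for 67 of the 72 genes in KO and 66 in KI. That is 93.1% and 91.7%, beside 70.7% and 70.3% of all genes. KO and KI share their WT libraries, so a gene that changed in both is not 2 independent observations.

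**Figure D3:**
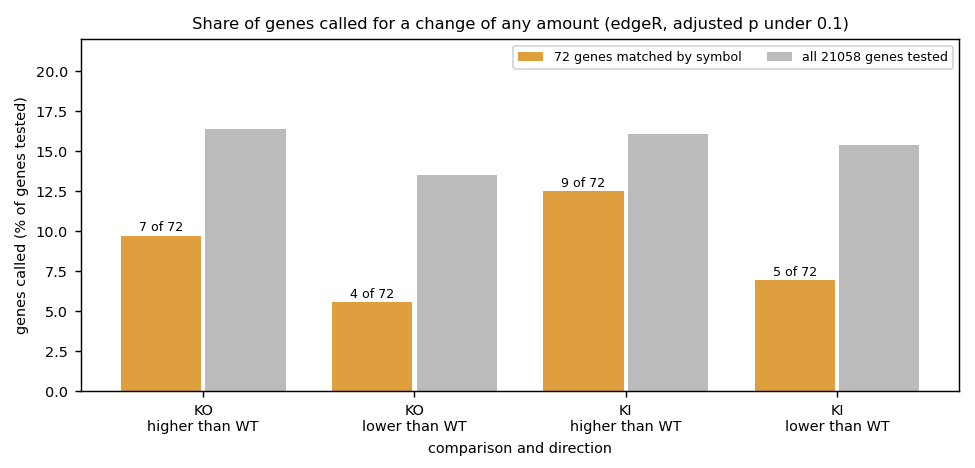
Percent of genes called higher or lower than WT in KO and KI, for the 72 axonemal genes (orange, count above the bar) and for all 21058 genes tested (grey). In each of the 4 pairs the orange bar is the lower one with all libraries, from 5.56% against 13.5% to 12.5% against 16.1%, but for higher genes in KI the order turned without KI 4 (18.1% against 14.5%) and in the other fits named above.

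With edgeR's glmTreat 0 of the 72 genes changed past 1 log2 unit in KO (1.73% of all genes did) or KI (1.95%), and DESeq2 with the same limit also called 0. At an unadjusted p under 0.05 against that limit, 1 gene passed in KO, beside 3.47% of all genes, and 1 in KI, beside 3.93%. Libraries of KO and WT did not overlap for 2 higher and 2 lower genes, 2.78% each way beside 6.62% and 6.44% of all genes. For KI and WT they did not overlap for 2 higher and 4 lower genes, 2.78% and 5.56% beside 5.97% and 7.91%. The counts depend on the scaling: with total counts in place of TMM the median of all genes moved by 0.12 in KO and 0.15 in KI, and 12 genes were higher and 3 lower in KO and 21 higher and 3 lower in KI. All genes moved with them, to 24.8% higher and 10.2% lower in KO and 26.7% and 11.8% in KI. Total counts added Dnaaf5, Dnah8, Dnaic1, Rsph1 and Rsph6a to the higher genes in KO. In KI they added Dnah1, Dnah6, Dnah10, Dnah12, Dnaic1, Dnaic2, Dnaaf2, Drc3, Rsph1, Cfap70, Cfap97 and Cfap221. With close pairs summed and KI 4 left out, 2 were higher and 1 lower in KO, beside 7.94% and 7.62% of all genes, and 2 higher and 2 lower in KI, beside 5.32% and 6.87%.

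**Figure D4:**
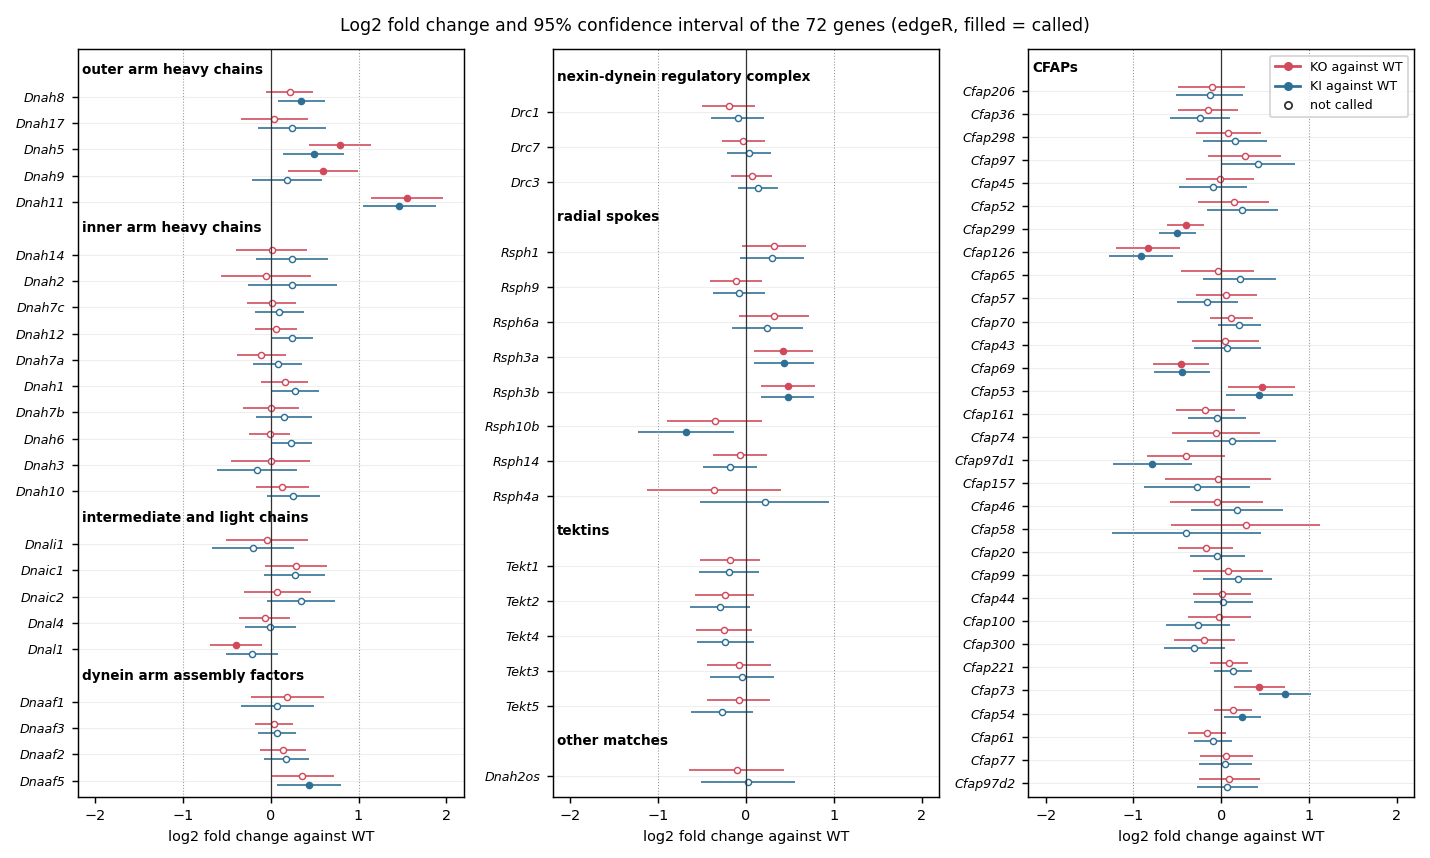
Log2 fold change against WT in KO (red) and KI (blue) for each of the 72 genes with its 95% confidence interval, filled where called. Dotted lines mark 1 log2 unit; Dnah11 is the only gene beyond one of them, at 1.55 and 1.46, and Cfap126 is the lowest at -0.83 and -0.92.

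Heavy chains of the outer arm divided by paralog. Dnah8 and Dnah17 carried the outer arm heavy chain RNA of RS: per length, Dnah8 made up 75.7% ± 3.12 of the sum of the 5 heavy chains in WT (SD, n = 6), 77.5% ± 2.15 in KO and 77.0% ± 2.52 in KI. Dnah17 made up 23.9% ± 3.16, 21.8% ± 2.11 and 22.5% ± 2.65. Dnah5, Dnah9 and Dnah11 together made up 0.397% ± 0.0865, 0.630% ± 0.174 and 0.482% ± 0.162, and without KI 4 the KI share was 0.424% ± 0.0893. The forms of other motile cilia thus remained under 1% of the outer arm heavy chain RNA in every library.

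Dnah11 had the largest change of the 72 genes. The gene lies on chromosome 12 (GRCm38, minus strand, chr12:117877982-118199043) and encodes a beta-type heavy chain of the outer arm. Its level in WT ran from 1.43 to 2.38 CPM (median 2.13), in KO from 4.29 to 7.47 (median 6.02) and in KI from 4.44 to 7.22 (median 4.87). Every KO and every KI library lay above every WT library. It rose 1.55 log2 units in KO (SE 0.20, adjusted p = 5.28e-06, edgeR) and 1.46 in KI (SE 0.20, adjusted p = 9.68e-06, edgeR). Against a change of 1 log2 unit the adjusted p was 0.245 and 0.470 (edgeR's glmTreat), and with the interval form of that test, added after the data were seen, Dnah11 passed in KO. Without KI 4 the rise in KI was 1.38 (SE 0.20, adjusted p = 3.10e-05, edgeR). It was called in each fit that left out 1 library and with the close pairs summed.

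Dnah5, a gamma-type heavy chain (chr15:28203752-28472052, plus strand), stood at 6.81 to 9.88 CPM in WT (median 8.86). KO libraries lay between 11.6 and 23.9 CPM (median 13.4), all above WT, with KO 1 apart from the rest. KI libraries lay between 9.02 and 14.2 CPM (median 11.8), and the lowest of them overlapped WT. The gene rose 0.79 log2 units in KO (SE 0.17, adjusted p = 0.00140, edgeR) and 0.49 in KI (SE 0.17, adjusted p = 0.0358, edgeR), and 0.44 in KI without KI 4 (adjusted p = 0.0768, edgeR). With close pairs summed the KO call held and the KI call was lost.

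Dnah9, the other beta-type chain of airway cilia, ran from 4.001 to 7.61 CPM in WT (median 5.97) and from 6.36 to 13.6 in KO (median 8.55). Its KO range overlapped that of WT through the lowest KO library, KO 6. It rose 0.59 log2 units in KO (SE 0.19, adjusted p = 0.0278, edgeR), a call that was lost with close pairs summed (adjusted p = 0.125, edgeR). In KI it lay between 5.05 and 10.03 CPM (median 6.45), and the log2 difference from WT was 0.18 (SE 0.19, adjusted p = 0.553, edgeR). KI 4 was the highest KI library. Without it the difference was 0.03 (SE 0.18, adjusted p = 0.924, edgeR). The difference between KI and KO, -0.41 (SE 0.19), had an adjusted p of 0.961 with edgeR, so the call in KO alone does not show that the genotypes differ. The rises of Dnah11, Dnah5 and Dnah9 were measured where all Leydig cell markers were higher as well, with the summed levels given above. Some macrophage, spermatogonial and spermatocyte markers were also higher, while some Sertoli cell markers and 1 spermatocyte marker (in KO) were lower. The part of those shifts in the rises was not tested.

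Of the sperm forms, Dnah8 was called in KI and Dnah17 in neither genotype. Dnah8 (chr17:30624354-30875264, plus strand), the most abundant member by CPM, ran from 2619 to 3394 in WT (median 2960), 3103 to 3808 in KO (median 3457) and 3118 to 4451 in KI (median 3687). Both genotypes overlapped WT. The gene rose 0.35 log2 units in KI (SE 0.13, adjusted p = 0.0548, edgeR) and the KO difference was 0.22 (SE 0.13, adjusted p = 0.258, edgeR). Without KI 4 the KI rise was 0.40 (adjusted p = 0.0352, edgeR), the KI call was lost without KI 3 or without KI 5, and with close pairs summed it was lost (adjusted p = 0.294, edgeR). Dnah17 differed from WT by 0.04 in KO and 0.24 in KI (SE 0.18 in both, adjusted p = 0.913 and 0.382, edgeR), with overlapping ranges, and by 0.35 in KI without KI 4 (adjusted p = 0.166, edgeR).

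**Figure D5:**
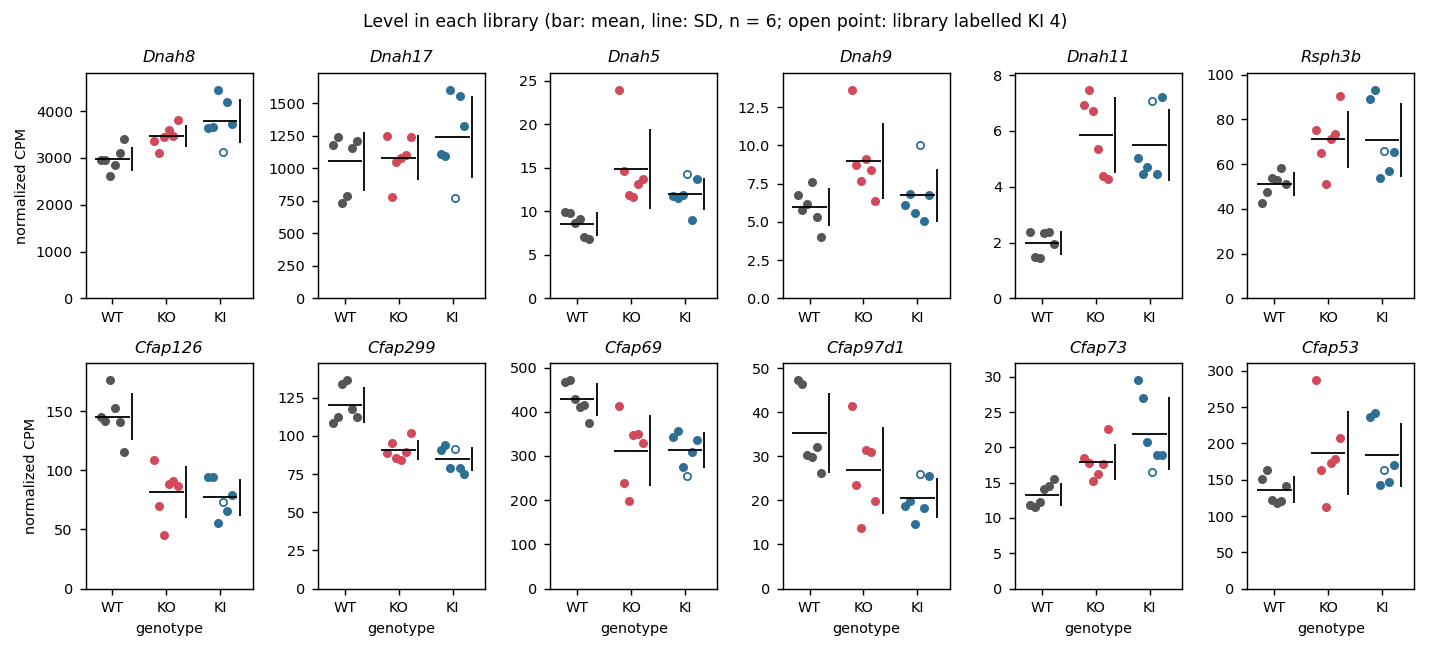
Normalized CPM in each library for 12 of the genes, in WT (grey), KO (red) and KI (blue), with the mean (bar) and SD (line) of 6 libraries; the open point is the library labelled KI 4. Dnah11 is at least 4.29 CPM in every KO and KI library and at most 2.38 in WT, and Cfap126 is at most 109 CPM in KO and KI and at least 115 in WT.

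Whether inner arm heavy chains were called in KI depended on the fit. The list held Dnah1, Dnah2, Dnah3, Dnah6, Dnah7a, Dnah7b, Dnah7c, Dnah10, Dnah12 and Dnah14, with WT levels from 19.7 CPM per kb for Dnah10 to 52.2 ± 9.98 for Dnah14. In KO 0 of 10 were called by edgeR or DESeq2, beside 29.9% and 22.7% of all genes. Differences ran from -0.11 to 0.16, with a median of 0.004. In KI edgeR with TMM called 0 of 10 with all libraries, beside 31.6% of all genes. DESeq2 called 3 higher (Dnah1, Dnah6 and Dnah12, beside 13.3% of all genes) and total counts 4 (the same and Dnah10, beside 26.7%). With TMM 9 of 10 differences were positive and the median was 0.24. Without KI 4, 4 of 10 were called higher in KI (Dnah1, Dnah6, Dnah10 and Dnah12, by 0.35, 0.30, 0.34 and 0.29), beside 14.5% of all genes, and the median was 0.29. With close pairs summed, or with replicate number as a block, 0 of 10 were called in KI, beside 12.2% and 31% of all genes. Each of these 4 genes had its highest KI levels in KI 3 and KI 5, a close pair. Dnah12, for example, was at 678 and 666 CPM there and at 481 to 560 in the other KI libraries. Dnah14 differed from WT by 0.009 in KO (SE 0.20, adjusted p = 0.984, edgeR) and 0.24 in KI (SE 0.20, adjusted p = 0.427, edgeR). Dnah7a, Dnah7b and Dnah7c are close copies on chromosome 1, whose reads may be split or lost in counting, so their separate levels are uncertain.

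Heavy chain genes are long, and over the 72 genes the fold change ran with exon length. Across genes, which are not independent replicates, Spearman's rho between exon length and log2 fold change was 0.27 in KO and 0.39 in KI (n = 72), and 0.22 in both over all 21058 genes. Pearson's r was 0.26 and 0.37, and 0.17 in both over all genes. For KI against KO, rho was 0.35 over the 72 genes and 0.07 over all genes, and r was 0.24 and 0.01. Genes in these correlations share the same libraries and scaling.

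Among intermediate and light chains 1 gene of 5 was called with all libraries, lower in KO, beside 13.5% of all genes. Dnal1, a light chain of the outer arm (chr12:84114366-84147498, plus strand), ran from 41.6 to 48.2 CPM in WT (median 45.4) and from 29.5 to 43.6 in KO (median 33.0), overlapping in 1 KO library, KO 3. It fell by 0.40 log2 units in KO (SE 0.14, adjusted p = 0.0450, edgeR), a call that was lost without WT 6, with close pairs summed (adjusted p = 0.255, edgeR) and with total counts (adjusted p = 0.206, edgeR). KI libraries spread from 28.3 to 51.7 CPM, and the difference was -0.22 (SE 0.14, adjusted p = 0.304, edgeR). Dnali1, an inner arm light chain with the highest level of the class at 75.2 ± 19.2 CPM per kb in WT, differed by -0.04 and -0.20 (SE 0.22 in both, adjusted p = 0.935 and 0.581, edgeR). The intermediate chains Dnaic1 and Dnaic2 and the light chain Dnal4 were not called in either genotype with all libraries. Without KI 4, Dnaic2 rose 0.43 in KI (SE 0.18, adjusted p = 0.0952, edgeR), where the difference with all libraries was 0.34.

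Assembly factors lay above WT in the mean of both genotypes, and 1 of 4 was called, higher in KI, beside 16.1% of all genes. Dnaaf5 ran from 43.5 to 73.9 CPM in WT (median 56.1), 59.5 to 90.0 in KO (median 74.7) and 54.7 to 106 in KI (median 76.7), with overlap in both. It rose 0.44 log2 units in KI (SE 0.17, adjusted p = 0.0712, edgeR), and the KO difference was 0.36 (SE 0.17, adjusted p = 0.147, edgeR). Without KI 4 the KI difference was 0.41 (adjusted p = 0.121, edgeR), and the call was also lost without KI 1, KI 2, WT 1, WT 2 or WT 5. Dnaaf1 differed by 0.19 and 0.08 (SE 0.20 in both, adjusted p = 0.559 and 0.834, edgeR). Dnaaf2 and Dnaaf3 were not called, and Dnaaf2 shares 38.7% of its exon length with the overlapping models Gm49383 and Gm49384.

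Radial spoke genes held 2 higher genes of 8 in KO, and 2 higher and 1 lower in KI. Over all genes 16.4% were higher in KO, and 16.1% were higher and 15.4% lower in KI. Rsph3a and Rsph3b, near-identical copies of a spoke stalk gene on chromosome 17 whose reads may be exchanged in counting, were the higher ones in both. Rsph3b (chr17:6904413-6948682, minus strand) ran from 42.6 to 58.1 CPM in WT (median 52.0), 51.3 to 90.4 in KO (median 72.4) and 54.0 to 93.2 in KI (median 65.6). Neither range was free of overlap with WT. It rose 0.48 log2 units in KO (SE 0.15, adjusted p = 0.0209, edgeR) and 0.47 in KI (SE 0.15, adjusted p = 0.0217, edgeR). Rsph3a gave 0.43 in both (SE 0.16, adjusted p = 0.0636 and 0.0568, edgeR). Without KI 4 the KI rises were 0.49 for Rsph3b and 0.45 for Rsph3a (adjusted p = 0.0263 and 0.0654, edgeR). With close pairs summed all 4 calls were lost, and that of Rsph3a was also lost without WT 1 or WT 2 in both, without KO 5 or KO 6 in KO and without KI 1 or KI 2 in KI. Among KI libraries, KI 1 and KI 2, a close pair, had the highest Rsph3b levels at 89.1 and 93.2 CPM.

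Rsph10b, of the spoke head, ran from 33.5 to 68.4 CPM in WT (median 42.3) and from 25.0 to 37.6 in KI (median 29.5), with overlap. It fell by 0.68 log2 units in KI (SE 0.26, adjusted p = 0.0613, edgeR), but was not called without KI 4 (-0.63, adjusted p = 0.110, edgeR), without WT 1 or without WT 2. KO libraries lay between 20.99 and 36.0 CPM but for KO 1 at 84.5, and the KO difference was -0.36 (SE 0.26, adjusted p = 0.373, edgeR). Rsph10b shares 13.2% of its exon length with Pms2 and Gm42421. Rsph1 differed by 0.32 and 0.30 (SE 0.18 in both, adjusted p = 0.217 and 0.240, edgeR).

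The spoke head paralogs kept the sperm form ahead in every genotype. Rsph6a was at 54.9 ± 11.4 CPM per kb in WT, 68.5 ± 20.01 in KO and 65.1 ± 15.4 in KI. Rsph4a was at 0.194 ± 0.118, 0.1503 ± 0.00963 and 0.226 ± 0.109. Neither was called, and the log2 differences of Rsph4a, -0.37 (SE 0.37) in KO and 0.21 (SE 0.35) in KI, were not resolved at this depth. Rsph9 and Rsph14 were not called.

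Nexin-dynein regulatory complex genes and tektins held no call with TMM and all libraries, beside 29.9% of all genes in KO and 31.6% in KI. With 3 and 5 genes these classes are small. The 3 Drc genes differed from WT by -0.20 to 0.06 in KO and -0.10 to 0.13 in KI. Drc1, which anchors the complex to the doublet, was the highest at 115 ± 6.55 CPM per kb in WT and differed by -0.20 in KO (SE 0.15, adjusted p = 0.374, edgeR) and -0.10 in KI (SE 0.15, adjusted p = 0.695, edgeR). All 5 tektins lay below WT in the mean of both genotypes, from -0.25 to -0.08 in KO and from -0.30 to -0.04 in KI, with a lowest adjusted p of 0.270 and 0.199 (edgeR). Tekt1 differed by -0.19 and -0.20 (SE 0.16 in both, adjusted p = 0.473 and 0.432, edgeR).

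CFAPs were the largest class, with 31 genes, and held 5 calls in KO and 7 in KI, beside 29.9% and 31.6% of all genes. Cfap126 (Flattop), a microtubule inner protein gene on chromosome 1 (chr1:171113918-171126967, plus strand), had the largest fall of the 72 genes. Its level ran from 115 to 176 CPM in WT (median 143), 45.1 to 109 in KO (median 87.6) and 55.2 to 94.6 in KI (median 76.1). No KO or KI library reached the lowest WT library. It fell by 0.83 log2 units in KO (SE 0.17, adjusted p = 0.00122, edgeR) and by 0.92 in KI (SE 0.17, adjusted p = 0.000448, edgeR). Without KI 4 the fall in KI was by 0.90 (adjusted p = 0.00134, edgeR), and the calls held with each library left out and with the close pairs summed.

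Cfap299 (chr5:98329304-98802047, plus strand) ran from 108 to 136 CPM in WT (median 115), 84.4 to 102 in KO (median 88.8) and 75.0 to 93.9 in KI (median 85.0), also with no overlap. It fell by 0.41 log2 units in KO (SE 0.10, adjusted p = 0.00546, edgeR) and by 0.50 in KI (SE 0.10, adjusted p = 0.000801, edgeR), and by 0.52 in KI without KI 4 (adjusted p = 0.00123, edgeR). The KO call was lost with close pairs summed (adjusted p = 0.120, edgeR), and 19.1% of its exon length is shared with E030032P16Rik.

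Cfap69, of the central apparatus (chr5:5579278-5664239, minus strand), ran from 375 to 472 CPM in WT (median 422), 197 to 414 in KO (median 337) and 255 to 357 in KI (median 323). KI lay wholly below WT, and KO overlapped it through KO 1. The gene fell by 0.46 log2 units in KO (SE 0.15, adjusted p = 0.0345, edgeR) and by 0.45 in KI (SE 0.15, adjusted p = 0.0343, edgeR), and by 0.40 in KI without KI 4 (adjusted p = 0.0774, edgeR). Close pairs summed gave an adjusted p of 0.168 and 0.448, and total counts 0.0949 and 0.124 (edgeR).

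Cfap97d1, which maintains the flagellar axoneme (chr11:101984279-101992264, plus strand), ran from 26.2 to 47.3 CPM in WT (median 31.3) and from 14.6 to 26.0 in KI (median 19.4), with no overlap. It fell by 0.78 log2 units in KI (SE 0.22, adjusted p = 0.0101, edgeR) and by 0.86 without KI 4 (adjusted p = 0.00848, edgeR). KO libraries spread from 13.7 to 41.5 CPM, and the difference was -0.40 (SE 0.22, adjusted p = 0.199, edgeR). WT 1 and WT 2, a close pair, had the highest levels at 47.3 and 46.3 CPM, and the KI call was lost with close pairs summed (adjusted p = 0.171, edgeR).

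These lower genes were measured where the 8 elongating spermatid markers were far lower in KO and KI, with the summed levels given above. Of the 9 RS markers, 2 were lower in KO and 5 in KI, beside 13.5% and 15.4% of all genes. The part of those shifts in the falls was not tested.

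Cfap73, of the complex that ties inner arms to the doublet (chr5:120628335-120634235, minus strand), was the CFAP with the largest rise in KI. It ran from 11.6 to 15.5 CPM in WT (median 13.2), 15.2 to 22.6 in KO (median 17.7) and 16.6 to 29.5 in KI (median 19.9). KI lay wholly above WT, and the lowest KO library overlapped it. The gene rose 0.44 log2 units in KO (SE 0.14, adjusted p = 0.0297, edgeR) and 0.72 in KI (SE 0.14, adjusted p = 0.000616, edgeR). In KI the rise was 0.79 without KI 4 (adjusted p = 0.000271, edgeR) and held with close pairs summed, while the KO call did not (adjusted p = 0.135, edgeR).

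Cfap53, a microtubule inner protein, ran from 118 to 164 CPM in WT (median 132), 113 to 287 in KO (median 176) and 143 to 242 in KI (median 167), overlapping in both. It rose 0.46 log2 units in KO (SE 0.18, adjusted p = 0.0765, edgeR) and 0.43 in KI (SE 0.18, adjusted p = 0.0921, edgeR), or 0.46 without KI 4 (adjusted p = 0.0930, edgeR). When each library was left out in turn, 5 of 18 fits lost the KO call (without KO 1, KO 6, WT 3, WT 4 or WT 5) and 9 of 18 the KI call (without KI 1, KI 2, KI 6, KO 4, KO 5, KO 6, WT 1, WT 4 or WT 5). Cfap54, of the central apparatus, was called in KI at 0.24 (adjusted p = 0.0969, edgeR), or 0.28 without KI 4 (adjusted p = 0.0628, edgeR), and lost in 11 of 18 such fits (without KI 3, KI 5, KI 6, KO 2, KO 4, KO 5, KO 6, WT 1, WT 2, WT 4 or WT 5).

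The other 24 CFAPs were not called in either genotype. Cfap206 differed by -0.11 and -0.13 (SE 0.18 in both, adjusted p = 0.733 and 0.668, edgeR). Cfap58 had the widest interval of the class, from -0.57 to 1.13 in KO and -1.25 to 0.45 in KI, with 1 KO library at 370 CPM and the KO median at 81.9. By place in the axoneme, microtubule inner proteins held 1 higher and 1 lower gene of 6 in both genotypes, the central apparatus 1 lower of 6 in KO and 1 higher and 1 lower in KI, the tether and inner arm docking genes 1 higher of 5 in both, and the spoke associated Cfap61 and Cfap206 none. Over all genes 29.9% were called in KO and 31.6% in KI, and these groups are small. Dnah2os, an antisense RNA of the Dnah2 locus counted by strand, was at 4.90 ± 1.51 CPM in WT and differed by -0.11 and 0.02 (SE 0.26 in both, adjusted p = 0.831 and 0.966, edgeR).

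Of the 10 genes with an X-box in the promoter, 1 (Rsph3b) was called in KO and in KI, beside 29.9% and 31.6% of all genes. Dnaic2 was also called in KI without KI 4, and total counts also called Dnaic1 in both genotypes and Dnaic2 and Dnaaf2 in KI. With TMM and all libraries the other 9 differed from WT by -0.24 (Tekt2) to 0.29 (Dnaic1) in KO and by -0.40 (Cfap58) to 0.34 (Dnaic2) in KI.

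KI and KO were compared directly to ask whether loss of the phosphorylated form and loss of the whole protein differ for these genes. Of the 72 genes 0 differed (edgeR), beside 0.0997% of all genes tested, and DESeq2 also called 0, beside 0.345% of all genes. At an unadjusted p under 0.05 edgeR gave 2 genes, Dnah6 at 0.24 and Dnah9 at -0.41, beside 4.42% of all genes. Differences ran from -0.68 to 0.58. The 95% interval lay within 1 log2 unit of 0 for 70 of the 72 genes (97.2%, beside 86.3% of all genes) and within 0.5 for 47. Without KI 4, 0 genes differed as well, beside 0.522% of all genes, but differences ran from -0.61 (Cfap58) to 0.67 (Rsph4a). Dnah9 was then at -0.56 (SE 0.18) and Dnah6 at 0.31 (SE 0.11). The missing calls do not limit how far KI and KO can differ. The intervals above do so only with KI 4 counted as KI, though its Ddx25 level lay within the KO range.

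Axonemal genes that the symbol rule misses were read in the same fit. A list of 85 such genes was written from textbook knowledge, and 74 are in the table and 73 were tested. In KO 4 were higher and 8 lower and in KI 9 were higher and 11 lower, which is 16.4% and 27.4% of the 73, beside 29.9% and 31.6% of all genes. In at least 1 of the comparisons 22 genes were called, where 37.7% of all genes were. Without KI 4, 7 were higher and 9 lower in KI, beside 14.5% and 15.8% of all genes. Their median log2 fold change was -0.03 in KO and 0.006 in KI. Dynll2, a light chain shared by dyneins and other complexes, fell by 0.997 log2 units in KO (SE 0.17, adjusted p = 0.000129, edgeR) and by 1.22 in KI (SE 0.17, adjusted p = 1.07e-05, edgeR). Spaca9, another microtubule inner protein, fell by 0.74 (SE 0.19, adjusted p = 0.00533, edgeR) and by 0.94 (SE 0.19, adjusted p = 0.000653, edgeR). Dynll1 fell by 0.47 and by 0.55, and Lrrc34 by 0.62 and by 0.63. Dynlt1b, 1 of several close copies whose reads may be exchanged, rose 1.27 in KO (SE 0.23, adjusted p = 0.000349, edgeR) and 0.98 in KI (SE 0.23, adjusted p = 0.00320, edgeR). Without KI 4 these 5 genes were called in KI as well, with Dynll2 at -1.26, Spaca9 at -0.97, Dynll1 at -0.62, Lrrc34 at -0.67 and Dynlt1b at 0.897.

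Transcription factors known for ciliary and spermatid genes were read in the same libraries. Of 9 listed, 3 were lower in KO (Rfx3, Crem and Sox5), 4 in KI (the same and Tcfl5), and Mybl1 was higher in both. Over all genes 13.5% were lower and 16.4% higher in KO, and 15.4% and 16.1% in KI. Without KI 4, 3 were lower in KI, as Tcfl5 was no longer called (-0.36, adjusted p = 0.135, edgeR). Crem, at 376 ± 57.3 CPM in WT (SD, n = 6), was measured at 248 ± 25.3 in KO and 227 ± 36.9 in KI, a fall by 0.60 and by 0.73 log2 units (SE 0.13 in both, adjusted p = 0.00189 and 0.000284, edgeR). Rfx3 fell by 0.51 and by 0.62 (SE 0.13 in both, adjusted p = 0.00672 and 0.00128, edgeR). Rfx2, a main RFX factor of spermatids, was at 197 ± 38.5 CPM in WT and differed by -0.01 and -0.11 (SE 0.19 in both, adjusted p = 0.977 and 0.742, edgeR). Foxj1, the master regulator of motile cilia, differed by -0.23 and -0.18 (SE 0.19 in both, adjusted p = 0.418 and 0.540, edgeR). Mybl1, a meiotic factor, rose 0.53 and 0.64 (SE 0.13 in both, adjusted p = 0.00452 and 0.000826, edgeR). How these levels bear on the axonemal genes was not tested.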

How the data were processed

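Total RNA of RS was sequenced in 6 libraries each of WT, KO and KI. The authors trimmed reads with cutadapt 3.4, aligned them with STAR 2.7.8a to mm10 and counted them with featureCounts of Subread 2.0.1 on GENCODE M18, by strand, without multi-mapping reads and without removing marked duplicates, per the labels, the methods and the file header. They deposited raw counts of 54232 genes, which were used unchanged. Bowtie2, FastQC and SAMtools 1.12 are also named by the submitters' processing notes, without a stated role. Symbols were taken from GENCODE M21 (54079 identifiers). Members and lists were chosen with earlier results of these data known. Counts passing filterByExpr were scaled by TMM and fitted with 1 quasi-likelihood model of genotype over 18 libraries (R 4.3.3, edgeR 4.0.16, limma 3.58.1), with an adjusted p threshold of 0.1. Simulated counts were used to test the script. Floors cover counting error only: without molecular identifiers, PCR copies of a molecule are counted again.

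Genes given with full statistics were, by rule, those past 1 log2 unit, the 5 largest rises and falls called in each comparison with WT, those called between KI and KO and the highest gene per length of each class. Others, such as Dnah17, Rsph3a, Rsph4a, Cfap53, Cfap54, Cfap58 and the inner arm chains, were named after their values were seen. Alternatives were DESeq2 1.42.0, its size factors, total counts, other filters, a fit of the compared genotypes alone, replicate number as block, a threshold of 0.05, close pairs summed, and each library left out. The interval form of glmTreat and leaving out both KI 4 and KO 2 were added after seeing the data. Figures used Python 3.11.15 and matplotlib 3.10.9.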

Additional observations from a re-analysis of the deposited data

Results flagged for a closer look

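Within the 6 libraries of a genotype, 69 sets of values were searched for a library far from the others, and 5 had one. Chance flags about 1 set in 20. Dnah5 in KO 1 was at 23.9 CPM, with the other KO libraries between 11.6 and 14.6. Rsph10b in the same library was at 84.5 CPM, with the others between 20.99 and 36.0. Tekt1 in KO 3 was at 317 CPM, with the others between 454 and 505, and mitochondrial rRNA took 21.3% of the counts of that library, the highest share of all 18.

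In the library labelled KI 4, Dnah9 was at 10.03 CPM, with the other KI libraries between 5.05 and 6.83, and the 72 genes took 2.02% of the counts, with the others between 2.51% and 2.76%. Mitochondrial rRNA took 17.5% of its counts, beside 7.73% to 15.5% in the other KI libraries. Whether these shares bear on the gene levels was not tested.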

How the results depend on the processing

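With all libraries, 7 genes were higher and 4 lower in KO, and 9 higher and 5 lower in KI. The count of higher genes in KO became 12 with total counts and 2 with close pairs summed, and in KI 21 and 2, while the share of all genes called higher was 24.8% and 7.94% in KO and 26.7% and 5.32% in KI. Lower genes became 1 in KO and 2 in KI with close pairs summed, and 3 in KI with total counts. At an adjusted p under 0.05, 4 genes were higher in KI, a stricter threshold for which no share of all genes is given. Without KI 4 and KO 2 the number higher in KI was 14 (19.4% against 14.4% of all genes). Past 1 log2 unit in KO, 1 gene was called with total counts and 1 with the interval form of glmTreat, again without a share of all genes. The 22 called axonemal genes outside the rule became 6 with close pairs summed and 14 at the threshold of 0.05. With close pairs summed, 15.6% of all genes were called in KO and 12.2% in KI. Total counts moved the median log2 fold change of the 72 genes in KI from 0.08 to 0.23. Apart from the alternatives' own construction (fewer libraries, a stricter threshold, another scaling), the cause was not tested.

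Leaving out each library in turn gave 5 to 8 genes higher and 3 to 6 lower in KO, 5 to 13 higher and 4 to 5 lower in KI, 0 past 1 log2 unit in either, 0 between KI and KO, and 16 to 26 of the axonemal genes outside the rule. Over all genes these fits called 13.7% to 16.8% higher and 11.9% to 14.3% lower in KO. In KI they called 13.7% to 18% of all genes higher and 12.3% to 16.2% lower. The lowest count of higher genes in KI, 5, was that without WT 1, and the highest, 13, was reached both without KI 4 and without WT 6. With the replicate number as a block (replicate block), 7 were higher and 5 lower in KO and 7 higher and 5 lower in KI. That fit called 16% of all genes higher and 13.8% lower in KO, and 15.2% and 15.8% in KI. Correlations of same-numbered deviations between genotypes ran from -0.44 to 0.48, a range that cannot settle whether the numbers pair the libraries. Over the log2 fold changes of 22 named genes, 1167 values kept their side of the threshold, 55 lost a call, 10 gained one and 0 turned direction.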
